A study of Homo sapiens with 10 samples.

Results

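Integrins and the proteins that tie them to actin were followed in ARPE-19 cells, an established human retinal pigment epithelial line, in control medium and in high glucose. The genes were selected on their symbols: all integrin alpha and beta subunits, and 20 focal adhesion proteins (LIMS1, LIMS2, ILK, PARVA, PARVB, RSU1, TLN1, TLN2, FERMT1, FERMT2, FERMT3, PXN, PTK2, BCAR1, VCL, ZYX, ACTN1, TNS1, TNS2 and TNS3). The list was drawn up with the fold changes of this same comparison already known, LIMS2 among the largest decreases, so the values below are given as a description. It holds 46 genes of 22626 rows in the count table, made up of 18 alpha subunits, 8 beta subunits and the 20 focal adhesion proteins. The control group was kept for 48 h in 5.5 mM glucose with 32 mM mannitol, a sugar alcohol that balances the dissolved molecules (n = 5, MG_1 to MG_5). The high glucose group was kept for 48 h in 37.5 mM glucose (n = 5, HG_1 to HG_5). All libraries came from the same line, grown without the photoreceptors and choroid that border this epithelium in the eye.

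An integrin is a pair of 1 alpha and 1 beta chain that grips matrix proteins outside the cell. Talins and kindlins bind the tail of the beta chain and switch the receptor on. ILK, a PINCH protein (LIMS1 or LIMS2) and a parvin form a complex that is recruited to the same tail, and vinculin, alpha-actinin, zyxin and tensins link the site to actin. In the eye, the retinal pigment epithelium uses integrins to hold on to Bruch's membrane on its basal side, and the pair of ITGAV and ITGB5 to bind shed photoreceptor tips on its apical side.

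Total counts per library were between 32448991 and 45864176. Levels are given as CPM (counts scaled to the library's size after TMM normalization) or, for comparisons between genes, as the FPKM that the authors deposited. A gene is said to be called when edgeR's quasi-likelihood test gave an adjusted p under 0.05 over all 14936 rows tested. The libraries HG_1 and MG_2 stood apart from their groups: their counts rose with the GC content of the gene. The slopes were 0.19 and 0.17 log2 units per 10 points of GC. In HG_2 to HG_5 they lay between -0.09 and -0.03, and in the other controls between -0.04 and -0.01. These ranges overlapped, but most high glucose slopes were lower, a difference that leaving out HG_1 and MG_2 does not remove. Results are therefore also given without both libraries and after removal of the GC and transcript length trend of each library. Of the pigment epithelium markers, OTX2, MITF, KRT8 and KRT18 were present (means of at least 50.2 CPM in each group), RLBP1 had a mean of at least 8.79 CPM in each group, and PMEL was at 3.59 and 2.19 CPM in control and high glucose. BEST1 varied widely between the control libraries. SERPINF1 was at 0.825 and 0.759 CPM, RPE65 was near 0, and TYR was at 0.290 and 0.0555 CPM.

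Of the 46 genes, 37 had enough counts to be tested. Called in the comparison were 15, of which 3 were higher in high glucose (ITGA3, ITGB5 and FERMT1) and 12 lower (LIMS2, ITGB4, TNS2, TNS1, FERMT2, ITGA7, ACTN1, ILK, PXN, TLN1, ITGA5 and RSU1). Over all tested rows, 15.4% were called, 7.62% as higher and 7.8% as lower. Since the genes were listed with this comparison known, nothing is read from their larger share. The groups did not overlap in CPM in 12 of the 37 genes, against 13.6% of all rows. In FPKM the groups of RSU1, TNS1, FERMT1 and FERMT2 overlapped, and those of ILK, ITGA3 and ITGA7, which overlapped in CPM, did not. The median log2 fold change was -0.19 over the 37 genes and 0.00 over all rows. Of the 15 called genes, only LIMS2, ITGB4, TNS2 and FERMT1 passed a fold of 1.5. The low-count ITGA11 also passed it (log2 fold change 0.88 ± 0.36) and was not called. All 15 calls held without HG_1 and MG_2, where 21 genes were called (beside 4035 of the 14899 rows in that fit), and with the trend removed, where 25 were called (4 higher and 21 lower, against 29.4% of the 13538 rows in that fit). The 10 genes added by the removal of the trend were ITGA1, ITGA4, ITGA11, ITGAE, ITGAV, ITGB8, LIMS1, PTK2, VCL and ZYX.

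**Figure D1:**
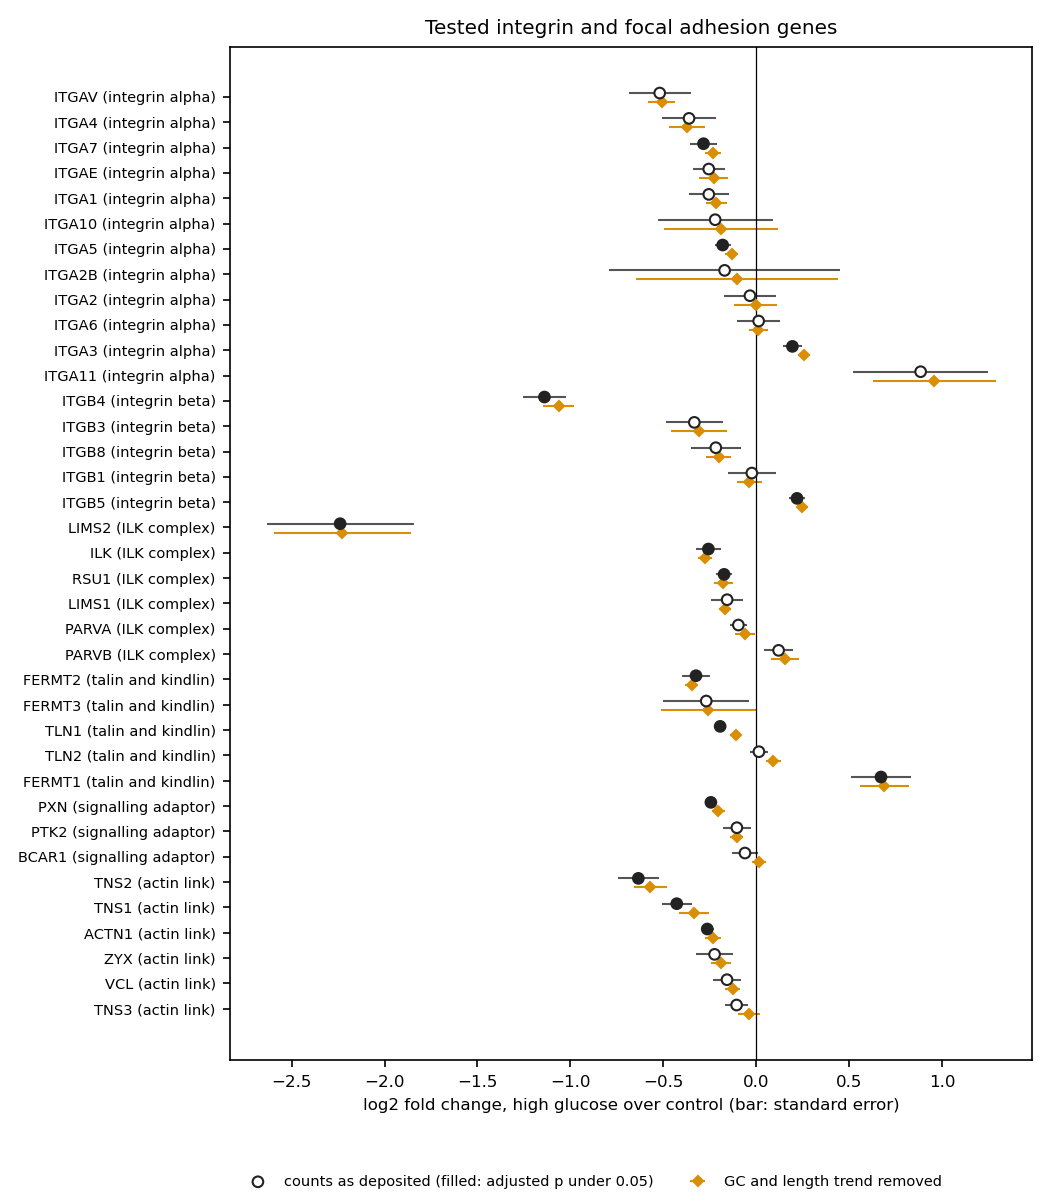
Log2 fold change (high glucose over control, horizontal axis) with its standard error for the 37 tested genes, grouped by role, from the counts as deposited (circles, filled where the adjusted p was under 0.05) and with the GC and length trend removed (diamonds). LIMS2 (-2.24) and ITGB4 (-1.14) lie farthest to the left, and FERMT1 (0.67) is the called gene farthest to the right.

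The start region of LIMS2 is shown because this gene had the largest change of the list. LIMS2 lies on the minus strand of chromosome 2 (GRCh38, 127638381 to 127681786). RefSeq gives 4 start windows of 300 bases for it, with GC contents of 38.3%, 67.0%, 64.0% and 55.3% in the order of transcription. The counts are per gene and do not say which start was used. The 250 bases before the outermost start (GRCh38.p14, minus strand, chr2:127681787-127682036) lie outside the annotated gene and hold none of the motifs searched, while the window of 67.0% GC holds GGGCGG:
LIMS2: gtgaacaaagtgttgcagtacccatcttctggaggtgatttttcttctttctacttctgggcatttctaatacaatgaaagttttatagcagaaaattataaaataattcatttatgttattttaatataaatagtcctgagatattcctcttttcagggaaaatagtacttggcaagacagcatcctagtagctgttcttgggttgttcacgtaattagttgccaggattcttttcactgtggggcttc

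The motifs searched on both strands of the 300-base start windows were the CArG box (the site of serum response factor), CATTCC (TEAD factors), TGANTCA (AP-1) and GGGCGG (Sp1). These factors are known for control of adhesion and cytoskeletal genes, apart from Sp1, a general promoter factor. RefSeq held windows for 34 of the 46 genes, 63 windows in all. The CArG box was in 4.76% of these windows (3 of 63) and in 1.29% of all 35116 windows, CATTCC in 12.7% and 14.0%, TGANTCA in 6.35% and 7.71%, and GGGCGG in 54.0% and 45.0%. Shown are the 30 bases around the CArG box in the called genes ACTN1 (chr14:68977718-68977747) and RSU1 (chr10:16817474-16817503), and around CATTCC in PXN (chr12:120250213-120250242) and ITGA5 (chr12:54419331-54419360), all on the minus strand and with the motif in capitals. In ITGA5 the motif is on the opposite strand. The matches start 171, 69, 67 and 82 bases before the start of the window concerned. In ACTN1 and PXN this is an inner start, and of the motifs searched the windows of their outermost starts hold only GGGCGG. A match is a match of letters only, and no binding was measured.
ACTN1: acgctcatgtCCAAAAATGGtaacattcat
RSU1: gagctgttctCCTAATATGGgtagggtcgg
PXN: tgtttccaggaaCATTCCtcttccttaggt
ITGA5: tccagggacccaGGAATGcccccccgccag

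Of the 26 integrin genes, 17 had enough counts to be tested. Among the alpha subunits of the control group, ITGA3, a laminin receptor chain, had the highest mean level at 246 ± 7.78 FPKM (SD, n = 5). It was followed by the fibronectin receptor chain ITGA5 at 136 ± 4.86 FPKM, ITGAV at 68.3 ± 14.4 FPKM and ITGA7, another laminin receptor chain, at 43.4 ± 2.19 FPKM. ITGAV and ITGA7 overlapped (45.3 to 84.5 and 41.6 to 47.0 FPKM), as did ITGA4 and ITGA1 (8.08 to 11.5 and 6.32 to 9.30 FPKM), while ITGA3 and ITGA5 were separate from each other and from the rest. ITGA6 (23.3 FPKM) stood between these pairs, and ITGAE (3.90 FPKM) and the collagen receptor chain ITGA2 (0.708 FPKM) below them. Among the beta subunits, ITGB1, the common partner of most alpha chains, was at 454 ± 71.0 FPKM and ITGB5 at 191 ± 5.15 FPKM, far above ITGB8 (9.11 FPKM), ITGB4 (3.60 FPKM) and ITGB3 (2.05 FPKM).

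**Figure D2:**
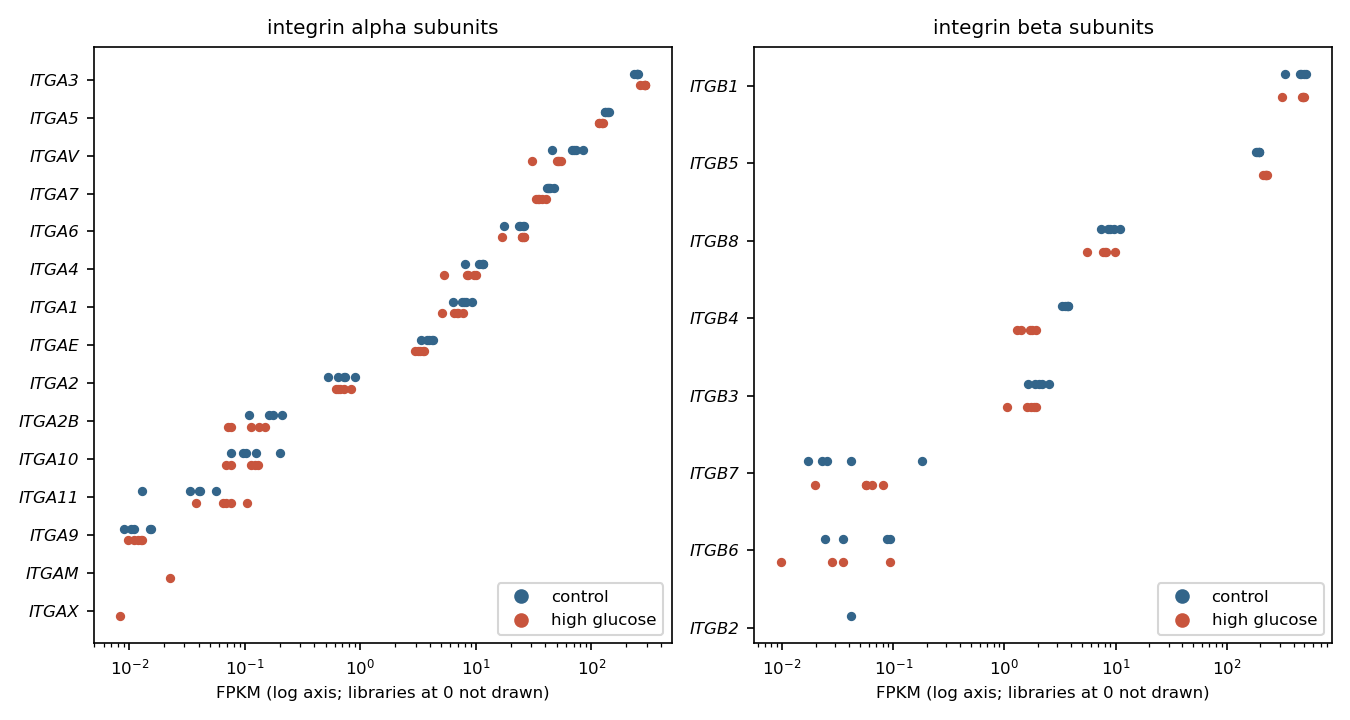
FPKM (log axis) of each integrin subunit in each control and high glucose library, 1 point a library, alpha subunits on the left and beta subunits on the right. ITGA3, ITGA5, ITGB1 and ITGB5 were above 100 FPKM in every library, and ITGB2, its leukocyte partners and the platelet chain ITGA2B lay below 1 FPKM.

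The alpha chains that pair with ITGB2 in leukocytes, and ITGB2 itself, were scarcely seen. ITGAL and ITGAD, which belong to this family, were at 0 counts in all 10 libraries, as was ITGA8, a chain of mesenchymal cells. ITGAM had 4 counts in 1 library, ITGAX 2 counts in 1 library and ITGB2 2 counts in 1 library. A count of 0 allows up to between 0.0669 and 0.0912 CPM per library (3 counts, counting error only). ITGA9 had between 4 and 6 counts in every library, ITGB6 between 0 and 19 and ITGB7 between 3 and 19, and these genes were not tested. ITGA2B, the platelet chain, ITGA10 and ITGA11, collagen receptor chains, and the leukocyte kindlin FERMT3 were tested on between 0 and 47 counts per library and were not called. ITGA4, ITGAE and ITGB3, which blood cells also use, were well detected (10.6, 3.90 and 2.05 FPKM in control).

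ITGA3 stood at 1219, 1367, 1298, 1293 and 1287 CPM in the control libraries MG_1 to MG_5. In the high glucose libraries HG_1 to HG_5 it was at 1590, 1451, 1518, 1484 and 1352 CPM, with only HG_5 inside the control range. The log2 fold change was 0.19 ± 0.05 (SE), a rise of 14.4%, and it was called. The call was lost when any of MG_1, MG_3, MG_4, MG_5, HG_3 and HG_4 was left out (adjusted p between 0.0517 and 0.0642, edgeR), with a log2 fold change between 0.17 and 0.23 over all 10 single omissions.

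ITGA5 was at 600, 646, 600, 639 and 643 CPM in the control libraries and at 581, 551, 565, 530 and 531 CPM in high glucose. All 5 high glucose libraries lay below all controls, with a log2 fold change of -0.18 ± 0.04, and the gene was called. Together the alpha chains summed to 540 ± 15.1 FPKM in control and 531 ± 16.3 FPKM in high glucose (n = 5 each), ranges that overlap. Within that sum the share of ITGA3 was 45.6% ± 2.43 (SD) in control and 53.4% ± 2.00 in high glucose, and the share of ITGA5 25.2% ± 1.03 and 22.7% ± 0.650. The ratio of ITGA3 to ITGA5 lay between 1.75 and 1.89 in control and between 2.25 and 2.46 in high glucose, with no overlap.

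ITGAV, the alpha chain of the vitronectin receptors, was low in both libraries that stood apart. It was at 635, 353, 499, 526 and 548 CPM in MG_1 to MG_5 and at 238, 392, 377, 378 and 401 CPM in HG_1 to HG_5. MG_2 and HG_1 were the lowest of their groups, and the groups overlapped only through MG_2. The log2 fold change was -0.52 ± 0.17 (SE) and did not pass the test (adjusted p = 0.0604, edgeR). Without MG_2 and HG_1 it was -0.51 and passed, and with the GC and length trend removed it was -0.51 ± 0.07 and passed, as it did with all libraries in DESeq2 (-0.52), with at least 10 counts in every library (adjusted p = 0.0447) and without MSTRG loci (adjusted p = 0.0449, edgeR). It did not pass with RLE factors, with library size alone, without a filter or in limma on FPKM. In all, ITGAV passed in 6 of 12 settings beside the single omissions, and in 1 of 10 single omissions. With the trend removed the control libraries lay between 429 and 581 and the high glucose libraries between 307 and 374 CPM, so that the groups no longer overlapped.

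ITGA7 was at 186, 184, 167, 173 and 167 CPM in control and at 173, 136, 141, 134 and 136 CPM in high glucose. HG_1 lay inside the control range and the other 4 high glucose libraries below it. It was called at a log2 fold change of -0.28 ± 0.07, and the call was lost without any of MG_1, HG_2, HG_3, HG_4 and HG_5 (adjusted p between 0.0633 and 0.0656, edgeR). ITGA4, known from leukocytes, ITGA1, a collagen receptor chain, and ITGAE, which binds E-cadherin, had log2 fold changes of -0.36, -0.26 and -0.26 and were not called, though each was called with the trend removed. ITGA6 (0.01) and ITGA2 (-0.03) were near 0.

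ITGB4, the chain that pairs with ITGA6 in hemidesmosomes, had the largest change of any integrin. It was at 20.5, 22.7, 21.4, 22.8 and 22.5 CPM in the control libraries and at 12.6, 8.80, 10.5, 7.81 and 10.2 CPM in high glucose. No high glucose library reached the controls, and the log2 fold change was -1.14 ± 0.12, a level that fell by 54.6%. Every single omission kept the call, with values between -1.24 and -1.06. ITGA6 did not pass the test, and the FPKM ratio of ITGA6 to ITGB4 lay between 4.76 and 7.80 in control and between 8.70 and 20.04 in high glucose, with no overlap. In control ITGB4 lay above ITGB3 (3.33 to 3.75 and 1.64 to 2.51 FPKM), and in high glucose the 2 ranges overlapped (1.30 to 1.92 and 1.06 to 1.94 FPKM). The level of ITGB3 is uncertain, because 55.7% of its 100-base windows are shared with another annotation, and so is this order.

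ITGB5 was at 920, 949, 881, 866 and 905 CPM in control and at 1112, 1055, 1079, 1016 and 1002 CPM in high glucose. All 5 high glucose libraries lay above all controls, with a log2 fold change of 0.22 ± 0.04, and the gene was called. The FPKM ratio of ITGB5 to its partner ITGAV was 2.93 ± 0.798 (SD) in control and 4.93 ± 1.45 in high glucose, and the ranges overlapped (2.31 to 4.33 and 3.97 to 7.49). ITGB1 was at 2165, 1423, 1853, 1909 and 2018 CPM in control and at 1343, 2005, 1944, 1927 and 1996 CPM in high glucose, with MG_2 and HG_1 low and a log2 fold change of -0.02 ± 0.13. The ITGB1 transcript shares 13.8% of its windows with AC022149.1. ITGB3 (-0.33 ± 0.15) and ITGB8 (-0.22 ± 0.13), both partners of ITGAV, were not called, and ITGB8 was called with the trend removed. Of the 100-base windows of the ITGB3 transcript, 55.7% are shared with the overlapping annotation AC068234.1, so its level is uncertain.

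**Figure D3:**
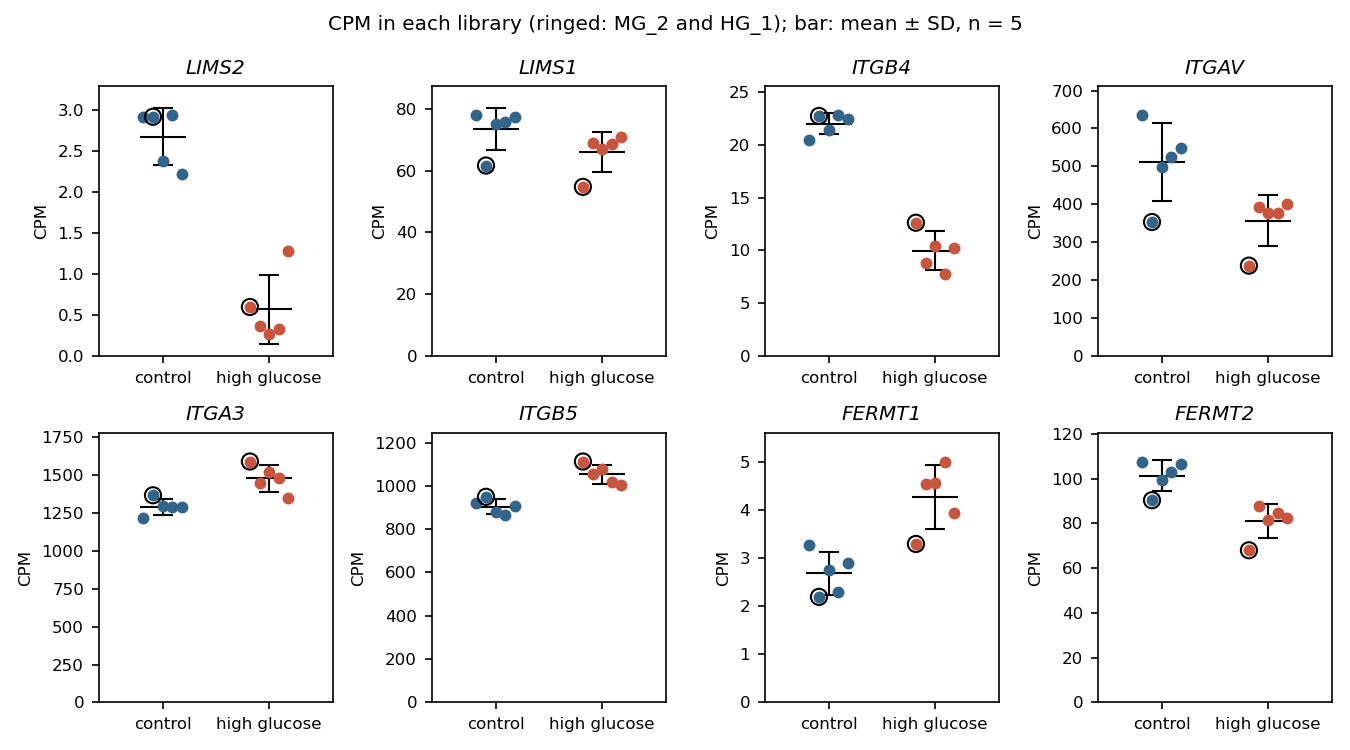
CPM in each library for 8 genes, control on the left and high glucose on the right of each panel, with mean ± SD (n = 5) and MG_2 and HG_1 ringed. In LIMS2, ITGB4, ITGB5, FERMT1 and FERMT2 the groups do not overlap, ITGA3 overlaps through HG_5, and in LIMS1 and ITGAV the ringed libraries are the lowest of their groups.

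In the ILK complex, LIMS2 had the largest change of the whole list. LIMS2 and LIMS1 encode PINCH proteins, adaptors of LIM domains that bind ILK in place of each other. LIMS2 was at 2.91, 2.92, 2.38, 2.94 and 2.22 CPM in MG_1 to MG_5 and at 0.597, 0.364, 0.267, 0.334 and 1.28 CPM in HG_1 to HG_5. The highest of the high glucose libraries, HG_5, was still below every control. These levels rest on small numbers of reads, 96 to 130 in each control and 11 to 42 in each high glucose library. The log2 fold change was -2.24 ± 0.40 (SE), a level 4.72-fold higher in control, and it was between -2.77 and -2.05 when single libraries were left out. On the scale of log2(FPKM + 1), which compresses genes of low level, limma gave -0.81 and also called it. No 100-base window of the LIMS2 transcript is shared with another gene, and GPR17, which lies within LIMS2 on the other strand, had 6 counts over all libraries.

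LIMS1 was at 78.0, 61.7, 75.2, 75.8 and 77.5 CPM in control and at 54.8, 69.0, 67.1, 68.7 and 70.8 CPM in high glucose. With MG_2 and HG_1 set aside, the highest high glucose library lay under the lowest control. The log2 fold change was -0.16 ± 0.08 and was not called, while without both libraries (-0.15) and with the trend removed (-0.17 ± 0.03) it was. In this gene 8.87% of windows are shared with the copies LIMS3 and LIMS4 and with AC112229.3. The FPKM ratio of LIMS1 to LIMS2 lay between 11.6 and 21.2 in control and between 32.1 and 154 in high glucose, so that LIMS1 was the main PINCH transcript of both groups.

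ILK, the pseudokinase at the centre of the complex, was at 265, 299, 258, 266 and 252 CPM in control and at 256, 216, 224, 202 and 224 CPM in high glucose. HG_1 overlapped the controls and the other 4 high glucose libraries lay below them. It was called at a log2 fold change of -0.26 ± 0.07, and the call was lost without any of MG_1, MG_4, HG_2, HG_3, HG_4 and HG_5 (adjusted p between 0.0506 and 0.0658, edgeR). The ILK transcript shares 35.0% of its windows with TAF10 and 2 further annotations (AC091564.2 and AC091564.3), all on the other strand. TAF10 was not called (-0.10).

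RSU1, which binds the PINCH protein LIMS1, was at 182, 163, 168, 174 and 174 CPM in control and at 153, 144, 152, 153 and 162 CPM in high glucose. The highest high glucose library (HG_5) lay just under the lowest control (MG_2). Its log2 fold change of -0.17 ± 0.05 was called, and the call was lost without any of MG_1, MG_4, MG_5, HG_2, HG_3 and HG_4 and in limma on FPKM (adjusted p between 0.0547 and 0.0685).

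The parvins, which join ILK to actin, were not called. PARVA was at 288, 263, 259, 266 and 281 CPM in control and at 234, 261, 261, 257 and 256 CPM in high glucose (log2 fold change -0.10 ± 0.05). PARVB was at 26.4, 33.1, 27.1, 30.1 and 29.6 CPM in control and at 35.7, 30.8, 30.6, 28.7 and 33.4 CPM in high glucose (0.12 ± 0.08). In both parvins the groups overlapped.

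Among the activators that bind the beta tail, the kindlins FERMT1 and FERMT2 moved in opposite directions. FERMT1, the kindlin of epithelia, was at 3.27, 2.198, 2.77, 2.30 and 2.90 CPM in control and at 3.30, 4.56, 4.57, 5.02 and 3.95 CPM in high glucose. HG_1 lay only just above the highest control. It was called, at a log2 fold change of 0.67 ± 0.16 (0.27 in limma on log2(FPKM + 1), also called). FERMT2, the widely expressed kindlin, was at 108, 90.3, 99.2, 103 and 106 CPM in control and at 68.0, 87.9, 81.7, 84.7 and 82.2 CPM in high glucose, all below the controls, and was called at -0.32 ± 0.07. FERMT2 stayed the main kindlin: its FPKM was between 49.9 and 66.9 times that of FERMT1 in control and between 24.4 and 32.0 times in high glucose.

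TLN1, the main talin, was at 820, 796, 795, 785 and 819 CPM in control and at 705, 700, 691, 698 and 716 CPM in high glucose. The 2 ranges were narrow and apart, with a log2 fold change of -0.19 ± 0.03 (-0.11 with the trend removed), and the gene was called. TLN2, the second talin, had a log2 fold change of 0.01 ± 0.05, and the FPKM ratio of TLN1 to TLN2 lay between 7.21 and 8.37 in control and between 6.42 and 7.14 in high glucose.

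Of the signalling proteins, the scaffold PXN (paxillin) was called. It was at 386, 388, 383, 382 and 394 CPM in control and at 339, 317, 323, 329 and 324 CPM in high glucose. The groups did not overlap, and the log2 fold change was -0.24 ± 0.03. PXN shares 16.0% of its windows with PXN-AS1 on the other strand. PTK2 (focal adhesion kinase) and BCAR1 (p130Cas, a docking protein that it phosphorylates with SRC) had log2 fold changes of -0.10 ± 0.07 and -0.06 ± 0.07 and were not called.

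At the actin end, ACTN1, which cross-links actin filaments, was at 1114, 1100, 1076, 1123 and 1123 CPM in control and at 927, 913, 893.5, 927 and 951 CPM in high glucose. All high glucose libraries lay below the controls, and the log2 fold change of -0.26 ± 0.03 was called. The tensins TNS1 and TNS2, which bind beta tails, were called as lower too.

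TNS2 was at 10.0, 10.1, 8.80, 9.62 and 8.74 CPM in control and at 7.53, 6.25, 5.30, 5.20 and 6.14 CPM in high glucose (-0.63 ± 0.11). TNS1 was at 97.9, 76.9, 81.0, 87.3 and 90.6 CPM in control and at 55.2, 66.6, 62.8, 67.8 and 70.0 CPM in high glucose (-0.43 ± 0.08). In neither gene did the groups overlap in CPM. In FPKM those of TNS1 did (7.29 to 10.3 and 5.19 to 7.53), and TNS1 was not called in limma on log2(FPKM + 1) or log2(FPKM + 0.1). The value of TNS2 was -0.38 on the log2(FPKM + 1) scale, and still called. TNS3, the tensin with the highest level at 37.5 FPKM in control, had a log2 fold change of -0.11 ± 0.06 and was not called. VCL (vinculin, -0.16 ± 0.08) and ZYX (zyxin, -0.22 ± 0.10) were not called, though both were with the trend removed. VCL shares 15.8% of its windows with AP3M1 on the other strand, which was itself higher in high glucose (0.27 ± 0.07, adjusted p = 0.0247, edgeR).

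In HG_1 and MG_2 the place of a gene within its group tended to rise with its GC content, with exceptions such as TNS1, TNS3 and RSU1. Over the 33 tested genes with a mean of at least 1 CPM, the correlation of GC content with the log2 ratio of the library to the mean of the other 4 was 0.79 in HG_1 and 0.83 in MG_2 (Pearson, across genes of single libraries, which are no replicates). HG_1 was the lowest or the highest of its group in 31 of 37 genes before removal of the trend and 29 after it. For MG_2 these numbers were 27 and 19, for MG_1, whose counts did not rise with GC content, 24 and 25, and for each of the other 7 libraries at most 14 and 13. Among these 33 genes the lowest ratio in both libraries was that of ITGAV (-0.70 and -0.64), whose transcript has 38.3% GC. The median coefficient of variation of the 37 genes went from 9.06% to 6.12% in control and from 10.3% to 7.83% in high glucose when the trend was removed. What made these libraries differ was not tested.

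**Figure D4:**
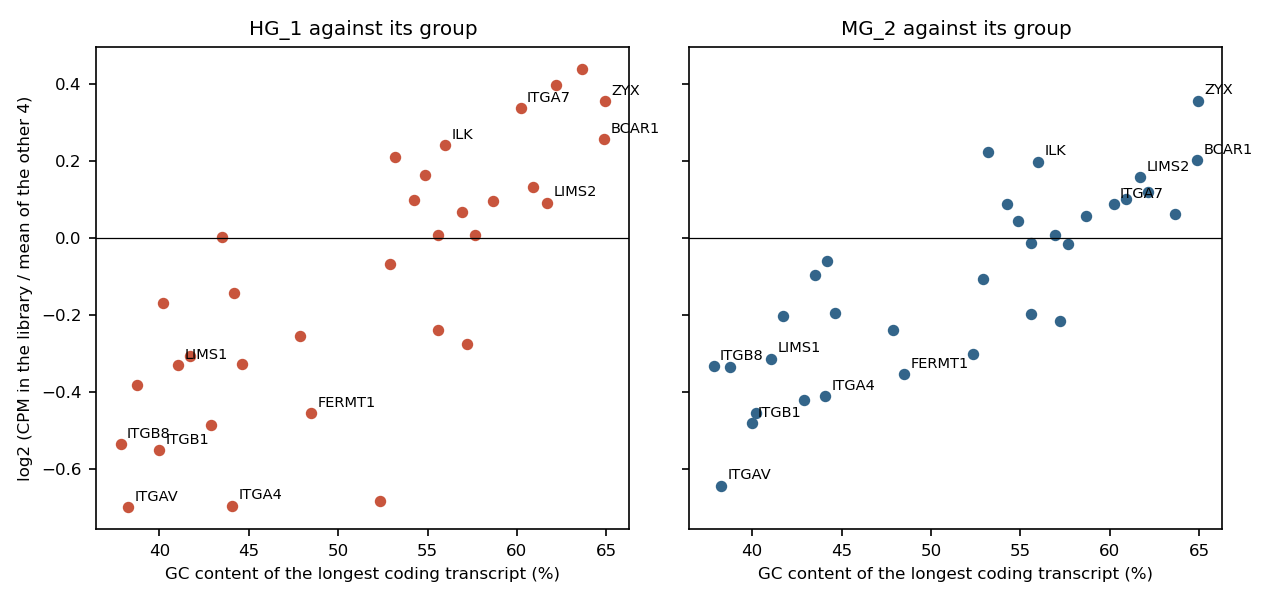
Log2 ratio of CPM in HG_1 (left) and MG_2 (right) to the mean of the other 4 libraries of the group, against the GC content (%) of the longest coding transcript, 1 point a gene (33 genes). Of these genes the AT-rich ITGAV has the lowest ratio in both libraries (-0.70 and -0.64), and the GC-rich ZYX lies above 0 in both (0.36 and 0.36).

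Genes that work with these proteins were taken from 4 lists written with earlier results of these data known. Of 104 tested genes, 37 were called, 3 higher and 34 lower, and with the trend removed 52 were (11 higher and 41 lower), against 15.4% and 29.4% of all rows in these fits. As the lists were written with results known, nothing is read from their shares. Of the focal adhesion partners, 16 of 48 were called, 1 higher (LPXN, a paxillin relative, 0.24 ± 0.06) and 15 lower, with a median log2 fold change of -0.14. TGFB1I1 (Hic-5, another paxillin relative) was at 47.3 ± 6.04 CPM (SD, n = 5) in control and 28.0 ± 4.82 CPM in high glucose (log2 fold change -0.76 ± 0.12 SE, adjusted p = 0.0022, edgeR). CAV1 (caveolin) changed by -0.58 ± 0.08 on the log2 scale (adjusted p = 0.00097), PDLIM7, an actin-bound LIM protein, -0.58 ± 0.10 (adjusted p = 0.0023) and LAYN, a talin-binding hyaluronan receptor, -0.54 ± 0.06 (adjusted p = 0.00027, edgeR).

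Of 27 tested genes for integrin ligands, most of them matrix proteins that these receptors grip, 18 were called, 17 lower and 1 higher, beside 7.8% and 7.62% of all rows. Their median log2 fold change was -0.37, and with the trend removed 20 were called, 18 lower and 2 higher. THBS1 (thrombospondin) was between 808 and 1694 CPM in control and between 270 and 441 CPM in high glucose (-1.61 ± 0.19, adjusted p = 0.00045, edgeR). COL1A1, a chain of fibrillar collagen, was between 40.1 and 53.8 and between 16.4 and 20.7 CPM (-1.33 ± 0.10, adjusted p = 2.855e-05). CCN2, a matricellular protein, changed by -1.29 ± 0.11 (adjusted p = 6.97e-05) and TNC (tenascin) by -1.12 ± 0.22 (adjusted p = 0.0061, edgeR). The ligand called as higher was LAMB3, a chain of the laminin that ITGA3 and the ITGA6 and ITGB4 pair bind (0.56 ± 0.10, adjusted p = 0.0036, edgeR). FN1, the ligand of ITGA5 and ITGAV, did not pass the test (-0.34 ± 0.12, adjusted p = 0.0971, edgeR), but passed with the trend removed (-0.28, adjusted p = 0.0317).

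Of the hemidesmosome and tetraspanin partners, 2 of 11 were called (18.2%, near the 15.4% of all rows), both lower. With the trend removed 7 of 11 were called, beside 29.4% of all rows in that fit. Of these, 3 were higher (CD63, CD82 and TSPAN4) and 4 lower (CD81, CD151, DST and TSPAN14). PLEC (plectin), which ties ITGB4 to keratin, changed by -0.18 ± 0.04 on the log2 scale (adjusted p = 0.0126, edgeR), which was -0.03 with the trend removed (adjusted p = 0.638). TSPAN14, a tetraspanin, changed by -0.37 ± 0.04 (adjusted p = 0.00039, edgeR). Of the genes for integrin traffic, 1 of 18 was called (5.56%, beside 15.4% of all rows), HAX1 (0.33 ± 0.09, adjusted p = 0.0318, edgeR). With the trend removed 5 of 18 were called, a share near the 29.4% of all rows in that fit. CLTC, DAB2, HAX1 and RABGAP1 were higher and SNX17 was lower.

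The lists of cell type markers were compared in the same fit, and nothing is read from their shares of calls. Of the pigment epithelium markers 3 of the 8 tested were called as lower in high glucose (7.8% of all rows were), KRT8 (-0.62 ± 0.10), KRT18 (-0.68 ± 0.10), which are the keratins of simple epithelia, and PMEL (-0.72 ± 0.15), and the summed level of the list was between 2831 and 3590 CPM in control and between 1795 and 2468 CPM in high glucose. With the trend removed 7 of the 8 were called as lower (14.9% of all rows in that fit), RLBP1, BEST1, MITF and OTX2 being added. BEST1 varied from 0.577 to 552 CPM within the control group. The summed leukocyte list was between 54.5 and 81.3 CPM in control and between 102 and 144 CPM in high glucose, nearly all of it CD68, a lysosomal protein that other cells also make, with CD3E at 0. The fibroblast and smooth muscle list summed to between 165 and 201 CPM in control and between 88.9 and 112 CPM in high glucose, nearly all of it PDGFRB, a receptor of mesenchymal cells, with DES at 0. CD68 was called as higher (0.70 ± 0.12) and PDGFRB as lower (-0.78 ± 0.07), also with the trend removed. The platelet list was at most 1.25 CPM (PF4, GP9 and PPBP at 0, and GP1BA, the tested gene, not called) and the endothelial list at most 0.583 CPM (CDH5 at 0, and VWF, the tested gene, not called). The part of these differences in the values of the integrin and adhesion genes was not tested. In RNA of whole cultures, fewer cells with a transcript and less transcript per cell cannot be told apart.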

How the data were processed

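RNA of ARPE-19 cells (5 control and 5 high glucose libraries) was extracted with TRIzol and sequenced. The submitters' processing notes name fastp 0.20.1, HISAT2 2.2.1 and GRCh38, and the counting program, its annotation and whether it used strand are not given in the sources used here. The authors deposited whole-number read counts per gene, without normalization, and FPKM values, which are scaled by the length of the transcript and the size of the library. The high glucose columns could be tied to their group only.

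Counts were tested with edgeR 4.0.16 in R 4.3.3 (default filter on low counts, TMM, quasi-likelihood test, Benjamini-Hochberg adjustment over 14936 rows). Alternatives used DESeq2 1.42.0, RLE factors, library size alone, other filters, limma 3.58.1 on log2(FPKM + 1) and log2(FPKM + 0.1), libraries left out and MSTRG loci left out. Removal, per library, of the dependence of log2 counts on GC content and on length (lowess, span 0.3, GENCODE release 29, 13538 rows) was added after seeing the data. The scripts were tested on simulated data.

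The genes and lists were chosen with earlier results of these data known. A marker of the leukocyte list is not reported here by name. Values per library are given for the ILK complex and for called genes with an absolute log2 fold change of at least 0.3 or no overlap between the groups, at most 24. From each further list at most 4 called genes with the largest changes and a mean of at least 1 CPM are named. ITGA3, ITGA7, ITGAV, ITGB1, LPXN, LAMB3, FN1 and any other gene named outside this rule were chosen after their values were seen. Positions are from GENCODE release 29 and start windows from RefSeq (GRCh38.p14). The labels give 5 samples per group and no separate cultures, so p-values measure the spread between these samples only, which may be technical. Total counts were 32448991 to 45864176 per library.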

Additional observations from a re-analysis of the deposited data

Results flagged for a closer look

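In 6 of 38 groups of 5 libraries examined (19 genes, each in both groups), the lowest or highest library stood far from the rest. Chance would give about 1.9 in independent groups, but these groups share the same 10 libraries, and ITGA3, ITGA7 and ITGAV were chosen after their values were seen, so the numbers cannot be set against each other. LIMS1 was at 61.7 CPM in MG_2, with the other controls between 75.2 and 78.0 CPM, and at 54.8 CPM in HG_1, with the other high glucose libraries between 67.1 and 70.8 CPM. ILK was at 299 CPM in MG_2 and between 252 and 266 CPM in the other controls. In HG_1, PARVA was at 234 CPM against 256 to 261 CPM, ITGAV at 238 CPM against 377 to 401 CPM, and ITGA7 at 173 CPM against 134 to 141 CPM. All 6 values belong to MG_2 or HG_1, the libraries whose counts rose with GC content.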

How the results depend on the processing

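Over 19 of the 20 genes with values per library (ITGB1 was not included), 416 fold changes were recomputed, and none changed its sign. The side of the threshold was kept in 379, lost in 28 (RSU1 9, ILK 6, ITGA3 6, ITGA7 5, TNS1 2) and gained in 9 (ITGAV 7, LIMS1 2). FERMT1 and LIMS2 gave no value at a mean of at least 1 FPKM. Without HG_1 and MG_2 together, 4035 of all rows (2303 in the main comparison), 21 of the listed genes and 59 of the further adhesion genes (12 higher and 47 lower, against 3 and 34) were called. With the GC and length trend removed, chosen after seeing the data, 3975 rows and 25 of the listed genes were called, and 52 further adhesion genes (11 higher and 41 lower). On the same 13538 rows with the trend kept, 16 listed genes were called, ITGAV being the one added. Single omissions gave between 1648 and 2993 rows, between 11 and 17 listed genes and between 29 and 43 further genes. The cause of the rise in calls was not tested. Depth limits LIMS2 in high glucose and the integrins with few counts. No paired analysis was possible because the high glucose columns carry no replicate name of their own samples.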
